A study of Mus musculus with 8 samples.

Results

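DA3, a mouse mammary adenocarcinoma line, was compared after co-culture with the mouse pre-osteoblastic stromal line MBA-15 and after culture on its own, on 2 arrays of DA3 co-culture and 2 of DA3 alone, which are 4 of the 8 arrays of the series. All 19938 genes with a single symbol were taken, and a gene was followed when both co-culture arrays lay on 1 side of both alone arrays, which held for 10728 genes. A gene was called expressed when its mean log2 value was above 6 in at least 1 of the DA3 groups, which 7062 genes met, and 3426 of those had their arrays apart. Beside the genes described stands a further value, marked MBA-15: the mean of the 2 MBA-15 co-culture arrays, the stromal cells from the same kind of dish, because stromal RNA can enter the DA3 fraction. Values are log2 and are given in the order of the replicate numbers.

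For co-culture, DA3 cells were laid on a layer of MBA-15 cells, and the mixed cells were later parted with a magnet through an antibody to Epcam (CD326), an adhesion protein of epithelial cells. DA3 co-culture is the fraction that the magnet held, MBA-15 co-culture is the rest, and the alone groups are the lines grown by themselves in the same medium. The sample descriptions carry 24 h for all arrays, while the protocol speaks of 24 or 48 h. The descriptions of the alone arrays also carry the word "mix", which no source used here explains, and nothing says that the 2 arrays of a group come from separate cultures, so p-values measure only the spread between these arrays. Each group is 1 cell line by its label. The arrays labelled MBA-15 alone, which carry Epcam at the level of DA3, entered the estimate of spread. For Cpa4 they also entered a test of the DA3 difference against that between the groups labelled MBA-15.

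Mammary carcinomas often spread to bone, where tumour cells meet osteoblasts and their precursors. Epithelial cells hold to a basement membrane of laminins and type IV collagen through integrins, while the stroma around them lays down type I collagen, and tumour cells that move into it use collagen receptors, plasmin and matrix metalloproteinases. Stromal cells also signal to carcinoma cells through growth factors, cytokines and prostaglandins.

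The DA3 label held on its markers. Epcam stood at 9.57 and 9.46 on the DA3 alone arrays, 9.29 and 9.38 on the co-culture arrays and 5.39 in MBA-15. All 11 epithelial markers had a co-culture mean between 7.65 and 10.63, and their average per array was 9.66 and 9.6 alone and 9.11 and 9.57 in co-culture. The average of 16 stromal markers was 4.98 and 5.02 alone and 6.03 and 5.55 in co-culture. On the MBA-15 co-culture arrays it was 8.08 and 7.78. Of these markers, 7 of the 16 were above 6 in DA3 co-culture against 4 in DA3 alone. Among 52 genes more than 4 log2 units higher in MBA-15 co-culture than in DA3 alone, the median gene was at the level that a 5.28% share of MBA-15 RNA would give on the first DA3 co-culture array (quartiles 3.43 and 6.93%) and 4.7% on the second (quartiles 2.7 and 7.5%). More stromal cells in the fraction and more stromal RNA per cell cannot be told apart in such bulk samples. The Y-linked gene Eif2s3y was at 3.73 and 3.76 on the DA3 alone arrays, 4.21 and 4.12 on the co-culture arrays and 7.18 in MBA-15, and Xist was near the floor throughout, at 3.52 and 3.62 alone, 3.68 and 3.63 in co-culture and 3.48 in MBA-15. Markers of leukocytes (6 of 7 measured), endothelium (4 of 4) and osteoblasts (3 of 6 measured) had DA3 co-culture means of at most 4.51. The osteoblast markers averaged 4.59 and 4.19 on the MBA-15 co-culture arrays themselves, so they cannot show stromal RNA in the DA3 fraction.

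The 2 co-culture arrays differed from each other more than the alone arrays did: the difference between replicates had an SD over genes of 0.482 in DA3 co-culture and 0.251 in DA3 alone. In the limma test on 8 arrays, 2 genes were higher (0.01% of 19938) and 6 were lower (0.0301%) in DA3 co-culture at a Benjamini-Hochberg adjusted p under 0.05, while 1081 were higher and 1892 lower at an unadjusted p under 0.05. No call held with the 4 DA3 arrays fitted alone, where limma called 0 higher and 0 lower (2982 genes at an unadjusted p under 0.05). The second DA3 co-culture array is the only array of assay 5 in the descriptions. A fit with the assay number as a block therefore rests on the first co-culture array alone, and its calls are not given. After quantile normalization, chosen after the data were seen, it called 1 gene higher and 0 lower, with 996 higher and 969 lower at an unadjusted p under 0.05. With 2 arrays against 2, an exact two-sided permutation test of a single gene cannot go below p = 0.333 and was not run. Calls by limma in what follows are those over all 19938 genes.

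Dim and bright genes differed in opposite directions. The median difference, co-culture minus alone, was 0.14 for genes with a mean DA3 level up to 4 and -0.32 for those between 6 and 7, and it approached 0 (-0.04) for those between 11 and 14. Over all expressed genes it was -0.289, and over genes not expressed it was 0.127. In all, 440 expressed genes (6.23%) had both co-culture arrays higher and 2986 (42.3%) had both lower, so that 12.8% of the expressed genes with arrays apart were higher. After quantile normalization 1307 were higher and 1449 lower, which is 47.4% higher. Over all genes 6257 (31.4%) were higher and 4471 (22.4%) lower as deposited. The counts of a gene group below are therefore to be read against 6.23% and 42.3%, and its median against -0.29, or -0.03 after quantile normalization. The cause of the shift was not tested.

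Larger differences were fewer. There were 98 expressed genes (1.39%) at least 1 log2 unit higher with arrays apart and 366 (5.18%) at least 1 unit lower. After quantile normalization the counts were 168 and 163, and all 98 of the first and 163 of the 366 second still met all parts of the rule. Without the first co-culture array they were 154 and 908, and without the second 153 and 456. Assay number 3 in the descriptions covers 1 array of each DA3 group, and between those arrays 80 of the 98 and 237 of the 366 differed by at least 1 unit in the same direction.

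**Figure D1:**
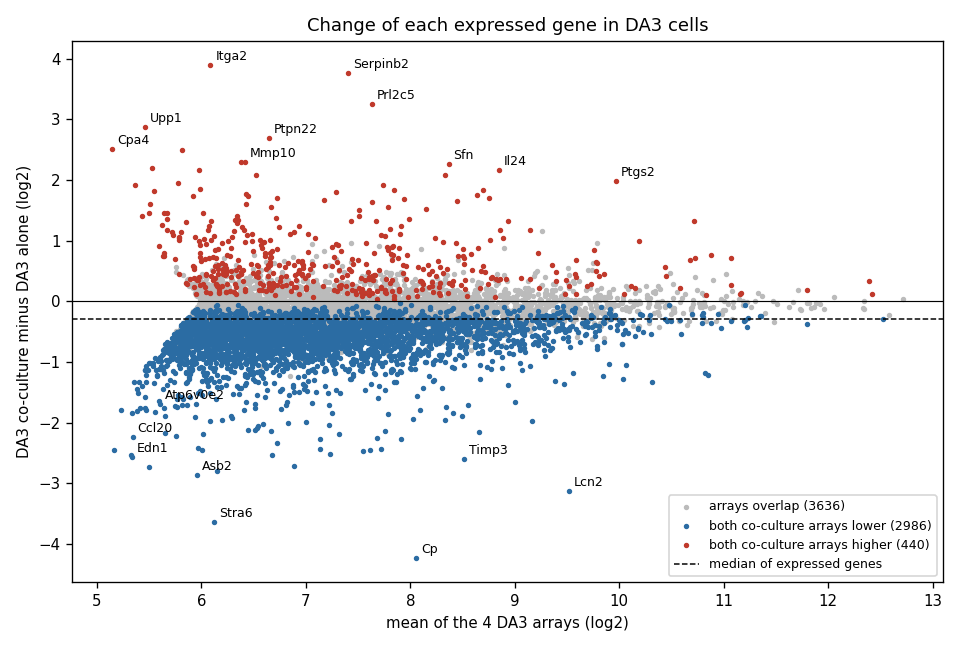
Difference between DA3 co-culture and DA3 alone (log2, vertical) against the mean of the 4 DA3 arrays (log2, horizontal) for 7062 expressed genes, with genes whose arrays do not overlap in colour. Most points lie below 0, with the median at -0.29 (dashed), while Itga2 and Serpinb2 stand highest and Cp and Stra6 lowest.

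Of the 98 higher genes, 62 had a mean in MBA-15 co-culture below that in DA3 co-culture, and in 40 of them it was below DA3 alone too. To see what a stromal share does to each value, MBA-15 co-culture signal was added to both DA3 alone arrays, at a share of 4.99% (the mean of both estimates), and the difference was taken again. For the 62 genes the outcome was close to fixed by the split, since a small share of a signal below their own can hardly move them, and their median difference went from 1.39 to 1.4. The other 36 genes, as high or higher in MBA-15 co-culture, went from a median of 1.36 to 0.72, and 10 of them were still at least 1 unit higher. The share was itself set on genes far higher in MBA-15 co-culture than in DA3 alone. Some of those, such as Prl2c5 and Vcan, are among the 36, so a smaller difference in them is largely built in.

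**Figure D2:**
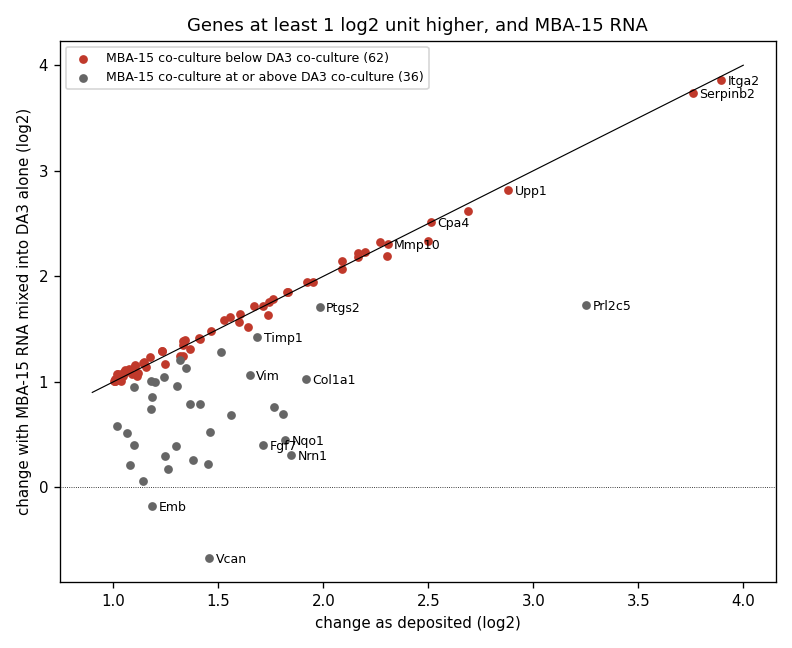
Difference between DA3 co-culture and DA3 alone as deposited (log2, horizontal) and after MBA-15 co-culture signal was added to DA3 alone at a 4.99% share (log2, vertical), for 98 genes at least 1 log2 unit higher, with the line of equal values. The 62 genes lower in MBA-15 than in DA3 co-culture lie along the line, where that choice all but places them, and Vcan and Emb fall below 0.

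The highest difference was that of Itga2, the alpha 2 subunit of the collagen receptor integrin alpha 2 beta 1. It read 4.26 and 4.02 on the DA3 alone arrays, 8.49 and 7.58 on the co-culture arrays and 4.62 in MBA-15. Both co-culture arrays lay far above both others, and the rise was 3.89 ± 0.36 (SE, n = 2 arrays a group) at a limma adjusted p of 0.0468. Its partner Itgb1, the beta 1 chain, was high throughout and its arrays overlapped, at 10.29 and 9.97 alone, 10.77 and 10.01 in co-culture and 10.31 in MBA-15. Cpa4, a secreted carboxypeptidase, was the other gene called higher. It was near the floor at 3.92 and 3.86 alone, stood at 6.49 and 6.3 in co-culture and was at 3.9 in MBA-15. Its rise was 2.51 ± 0.13 (SE) at a limma adjusted p of 0.0077. The values used here carry no detection call, so the true size of a difference is uncertain where 1 group is dim, as both genes are in DA3 alone and as Stra6, Asb2, Edn1 and Il33 below are in co-culture, and no fold is given.

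The 6 genes called lower by limma have varied roles. Stra6, the cell-surface receptor that takes up retinol, went from 7.71 and 8.17 alone to 4.1 and 4.5 in co-culture, with 4.18 in MBA-15. Its log2 change was -3.64 ± 0.28 (SE), with a limma adjusted p of 0.0331. Asb2, which brings substrates to a ubiquitin ligase and is known as induced by retinoic acid in myeloid cells, was at 7.62 and 7.15 alone, 4.29 and 4.76 in co-culture and 4.21 in MBA-15, a change of -2.86 with an adjusted p of 0.0331 by limma. Edn1, which encodes the vasoactive peptide endothelin 1, was at 6.88 and 6.35 alone, 3.91 and 4.19 in co-culture and 4.82 in MBA-15, a change of -2.56 with an adjusted p of 0.0426 by limma. Both genes thus reached the dim end of the scale on both co-culture arrays. Ccl20, the chemokine that binds Ccr6, was at 6.4 and 6.53 alone, 4.42 and 4.02 in co-culture and 3.78 in MBA-15 and changed by -2.24, at a limma adjusted p of 0.0331. Pla1a, a phospholipase that acts on phosphatidylserine, changed by -1.75 at an adjusted p of 0.0468 by limma, from 6.6 and 6.43 to 4.59 and 4.93 (5.71 in MBA-15). Atp6v0e2, a subunit of the proton pump of lysosomes, changed by -1.69 at an adjusted p of 0.0468 by limma, from 6.34 and 6.56 to 4.78 and 4.75 (3.96 in MBA-15). None of the 8 calls lasted through every omission of 1 array. Without the first or the second DA3 alone array, or the second co-culture array, 0 genes were called higher and 0 lower. Without the first co-culture array 2 were called higher and 1 lower, and without an MBA-15 array 1 higher and 0 to 1 lower. The limma adjusted p of Itga2 ran from 0.0672 to 0.433 over the 8 omissions and that of Stra6 from 0.0503 to 0.343, while Cpa4 was called in 5 of the 8 and Ccl20 in 1.

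Proteins of the plasminogen system, which turns on plasmin at the cell surface, held the second of the large differences. Serpinb2, plasminogen activator inhibitor 2, read 5.83 and 5.23 on the DA3 alone arrays, 9.39 and 9.19 on the co-culture arrays and 5.82 in MBA-15. The groups were far apart, by 3.76 ± 0.37 (SE), and the limma adjusted p of 0.0544 missed the threshold. Plaur, the urokinase receptor, was at 7.22 and 6.4 alone, 8.11 and 8.79 in co-culture and 8.19 in MBA-15. Serpinb5, or maspin, a serpin of epithelial cells, was at 7.19 and 6.83 alone, 7.95 and 9.19 in co-culture and 4.68 in MBA-15. Urokinase itself, Plau, overlapped between the groups at 9.83 and 10.37 alone, 10.48 and 9.75 in co-culture and 7.62 in MBA-15. Of 6 expressed genes on the list of the system, 3 had arrays apart, all higher, and the median difference was 0.92 (1.04 after quantile normalization). Anxa2 (0.29) and S100a10 (-0.03) overlapped, as Plau did. The list was chosen with earlier results known and holds Serpinb2, so its median is no separate result.

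The other large differences among genes with a lower mean in MBA-15 than in DA3 co-culture include enzymes, signalling proteins and secreted products. Upp1, uridine phosphorylase, which splits uridine for salvage, read 4.1 and 3.93 on the DA3 alone arrays, 6.27 and 7.53 on the co-culture arrays and 4.8 in MBA-15. Ptpn22, a tyrosine phosphatase best known from lymphocytes, read 5.76 and 4.85 on the DA3 alone arrays, 8.03 and 7.95 on the co-culture arrays and 6.04 in MBA-15. Mmp10, stromelysin 2, a matrix metalloproteinase of epithelial cells, read 5.53 and 5.0 on the DA3 alone arrays, 8.01 and 7.13 on the co-culture arrays and 5.27 in MBA-15. In all 3 genes the lower of the co-culture arrays was more than 1 log2 unit above the higher of the alone arrays. Il24, a cytokine of the interleukin 10 family, was at 8.48 and 7.05 alone, 9.89 and 9.96 in co-culture and 5.7 in MBA-15, with an alone group that was itself widely spread. Sfn, the epithelial 14-3-3 sigma protein, was at 7.51 and 6.95 alone, 9.01 and 9.99 in co-culture and 4.73 in MBA-15. Card14, a scaffold protein that activates NF-kB in keratinocytes, was at 5.24 and 4.55 alone, 7.15 and 6.96 in co-culture and 4.38 in MBA-15. In these 3 genes the MBA-15 mean was below both DA3 alone arrays. Mcpt8, a serine protease known from basophils, was at 4.59 and 4.27 alone, 6.97 and 6.28 in co-culture and 3.6 in MBA-15, and the 6 measured leukocyte markers had co-culture means of at most 4.42. Of the 23 measured genes of the wider leukocyte list 2 were expressed, Ly6g and Cd68, a protein of lysosomes in macrophages and other cells, which overlapped between the groups at 6.65 and 5.9 alone, 6.8 and 6.45 in co-culture and 5.29 in MBA-15. The part of other cells in the Mcpt8 value was not tested. Acsbg1, an acyl-CoA synthetase, was at 4.78 and 4.35 alone, 7.27 and 6.85 in co-culture and 6.3 in MBA-15, and the water channel Aqp8 at 7.67 and 6.9 alone, 8.59 and 10.16 in co-culture and 5.01 in MBA-15. Lce1j, of the late cornified envelope, was at 5.99 and 4.95 alone, 7.35 and 7.78 in co-culture and 5.67 in MBA-15. Snord118, the U8 small nucleolar RNA, was at 5.01 and 5.45 alone, 7.19 and 7.88 in co-culture and 5.89 in MBA-15, and the MBA-15 co-culture arrays were themselves far apart for it (4.32 and 7.46). None of these genes passed, with a limma adjusted p of 0.138 for Upp1, 0.168 for Ptpn22 and 0.112 for Mmp10.

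**Figure D3:**
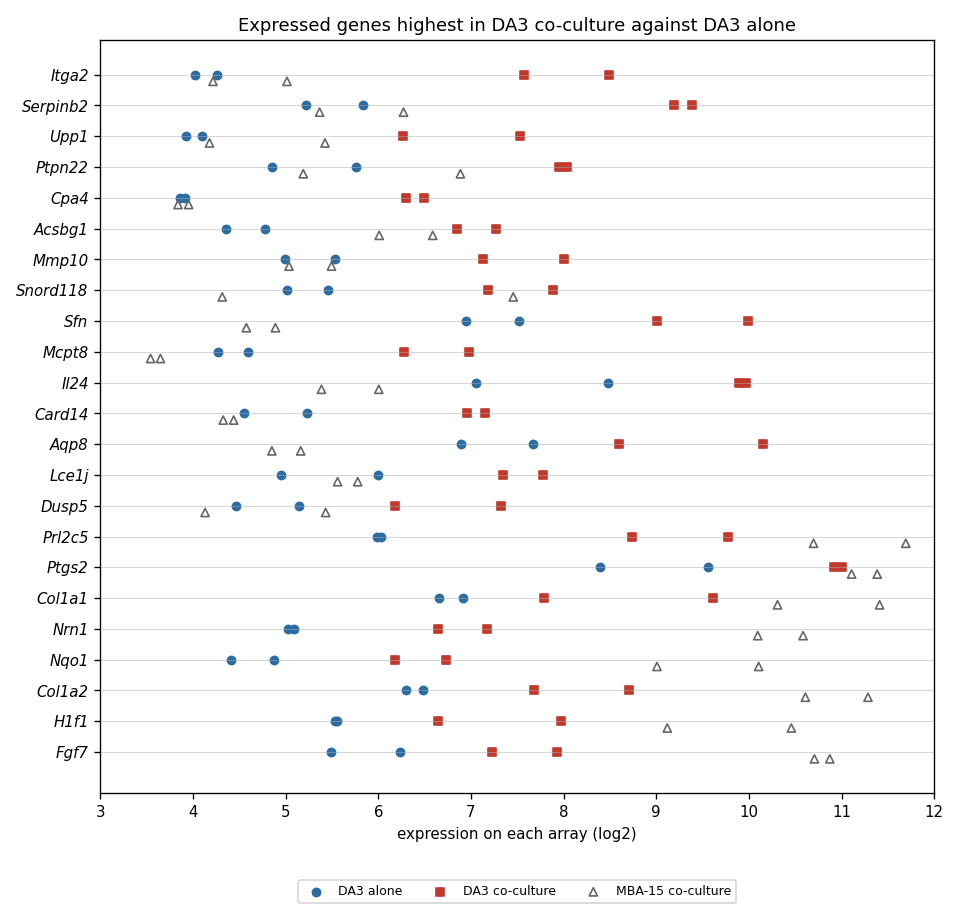
Expression on each array (log2) of the 15 expressed genes with the largest positive differences whose MBA-15 co-culture mean is below DA3 co-culture (top) and of 8 where it is not (from Prl2c5 down). Both DA3 co-culture arrays (squares) lie right of both DA3 alone arrays (circles) in each row, and in the lower 8 rows the MBA-15 co-culture arrays (triangles) lie right of both.

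Several of these genes carry a match to the AP-1 motif close to their start, and the bases before the start of 4 of them are shown because they are the named higher genes with such a match. AP-1 is the dimer of Fos and Jun proteins, and the motif searched was TGANTCA on both strands in the 250 bases before to 50 after the first listed start. The stretches below are the 250 bases before the start in the GRCm38.p6 assembly, from RefSeq, with the matched letters in capitals. Cpa4 lies at chr6:30568119-30568368 (match from -10), Mmp10 at chr9:7502092-7502341 (from -63), Serpinb2 at chr1:107511173-107511422 (from -94) and Upp1 at chr11:9117758-9118007 (from -45), all on the plus strand.
Cpa4: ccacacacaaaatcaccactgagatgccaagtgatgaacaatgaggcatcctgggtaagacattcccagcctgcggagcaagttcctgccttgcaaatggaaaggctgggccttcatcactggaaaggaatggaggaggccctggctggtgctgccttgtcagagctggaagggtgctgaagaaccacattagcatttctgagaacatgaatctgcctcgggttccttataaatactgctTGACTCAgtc
Mmp10: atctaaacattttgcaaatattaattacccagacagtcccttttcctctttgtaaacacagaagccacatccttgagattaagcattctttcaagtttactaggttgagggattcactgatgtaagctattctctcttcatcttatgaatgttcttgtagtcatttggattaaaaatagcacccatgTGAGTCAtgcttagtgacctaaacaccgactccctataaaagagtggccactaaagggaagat
Serpinb2: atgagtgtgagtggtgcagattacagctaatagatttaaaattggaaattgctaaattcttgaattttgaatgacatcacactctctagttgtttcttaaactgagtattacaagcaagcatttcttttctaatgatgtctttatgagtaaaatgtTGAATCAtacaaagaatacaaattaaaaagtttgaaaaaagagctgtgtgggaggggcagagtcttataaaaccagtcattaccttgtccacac
Upp1: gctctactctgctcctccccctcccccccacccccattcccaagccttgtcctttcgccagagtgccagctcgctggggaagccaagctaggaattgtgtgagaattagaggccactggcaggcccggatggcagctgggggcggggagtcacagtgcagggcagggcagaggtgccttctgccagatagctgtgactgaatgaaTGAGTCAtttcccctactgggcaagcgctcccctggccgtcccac
The motif was found in 4 of 12 higher genes with a promoter entry and a lower mean in MBA-15 than in DA3 co-culture (33.3%). It was in 0 of 6 higher genes where that mean was not lower and in 2 of 14 of the lower genes (14.3%). Among promoters of measured genes it was in 6.97% of 15563, and among those of expressed genes in 4.59% of 5773. The 2 lower genes with a match were Cp and Serpinb10. The TEAD motif CATTCC was in 4 of the same 12, in 6 of the 14 lower genes (42.9%) and in 13.1% of all, and the ATF4 motif TGATGNAA was in 2 of the 12 (Mmp10 and Sfn) and 3.17% of all. The CRE motif TGACGTCA was in none of the 3 sets and 2.5% of all, and the NF-kB motif GGANTTTCC in 1 lower gene, Tmprss2, and 1.32% of all. All motifs were searched on both strands, and overlaps between motifs were kept. These matches are letters in a window and describe no binding.

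Immediate early genes and the feedback inhibitors of the MAP kinase pathway differed in both directions. Of 23 expressed members 8 were higher and 8 lower with arrays apart (34.8% each), against 6.23% higher and 42.3% lower among all expressed genes. None was called by limma, and the median difference was 0.08 (0.41 after quantile normalization). After quantile normalization 9 were higher and 4 lower. Whether the list differs from the rest was not tested. Fosl1, the Fra-1 subunit of AP-1, read 5.97 and 5.19 on the DA3 alone arrays, 7.59 and 7.04 on the co-culture arrays and 6.78 in MBA-15. Dusp5, a phosphatase that turns off nuclear ERK, read 5.14 and 4.46 on the DA3 alone arrays, 7.33 and 6.18 on the co-culture arrays and 4.78 in MBA-15. Dusp1, a phosphatase of MAP kinases, was at 7.71 and 6.9 alone, 8.37 and 8.96 in co-culture and 8.02 in MBA-15, and Ier3 at 7.78 and 7.64 alone, 8.44 and 9.07 in co-culture and 6.58 in MBA-15. Spry1, a feedback inhibitor of receptor tyrosine kinase signalling, was lower, at 7.59 and 8.39 alone, 6.59 and 5.43 in co-culture and 4.39 in MBA-15. Among other AP-1 subunits, chosen after their values were seen, Jun was at 6.39 and 6.43 alone, 6.73 and 6.68 in co-culture and 7.59 in MBA-15 and Jund at 6.39 and 6.29 alone, 5.81 and 5.52 in co-culture and 4.74 in MBA-15, while Fos overlapped.

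Ligands and receptors differed in both directions. Of 11 expressed cytokines 5 were higher and 2 lower with arrays apart, none was called by limma over all genes, and the median was 0.09 (0.41 after quantile normalization). Besides Il24, the granulocyte factor Csf3 was at 6.59 and 5.66 alone, 6.91 and 7.81 in co-culture and 4.05 in MBA-15 and Clcf1, of the interleukin 6 family, at 6.2 and 5.28 alone, 6.97 and 6.81 in co-culture and 5.84 in MBA-15. Il33, an alarmin of epithelial nuclei, was at 6.1 and 7.09 alone, 4.02 and 4.1 in co-culture and 5.55 in MBA-15, and Kitl, the ligand of Kit, at 6.36 and 7.0 alone, 5.28 and 4.92 in co-culture and 7.68 in MBA-15. Il33 thus read near the floor on both co-culture arrays. Among 6 expressed members of the EGF family and its receptors, the ligand Hbegf was at 7.9 and 7.62 alone, 9.96 and 9.08 in co-culture and 7.27 in MBA-15, while the receptors Erbb3 (7.26 and 7.73 alone, 6.08 and 6.01 in co-culture and 3.77 in MBA-15) and Erbb2 (7.32 and 7.69 alone, 6.74 and 6.13 in co-culture and 5.67 in MBA-15) were lower on both co-culture arrays. Of 16 other growth factors and receptors, 5 were higher and 5 lower. Pdgfc, a platelet-derived growth factor, was at 8.48 and 9.19 alone, 6.32 and 6.46 in co-culture and 7.61 in MBA-15, and Pdgfb at 7.79 and 7.52 alone, 6.83 and 5.74 in co-culture and 3.68 in MBA-15. Fgf7, keratinocyte growth factor, was at 5.49 and 6.24 alone, 7.92 and 7.23 in co-culture and 10.79 in MBA-15, and the difference went from 1.71 to 0.4 with the stromal share added. Of 6 expressed chemokines, Ccl20 was the 1 that limma called. Cxcl1, which draws neutrophils, was at 7.55 and 7.2 alone, 7.92 and 8.65 in co-culture and 8.94 in MBA-15, and Cx3cl1 was at 6.41 and 6.39 alone, 5.56 and 5.38 in co-culture and 7.07 in MBA-15. Ccl7 was at 5.13 and 5.34 alone, 6.4 and 6.35 in co-culture and 9.71 in MBA-15, and its difference went from 1.14 to 0.06.

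Basement membrane and adhesion genes also differed both ways. Lama3 and Lamb3, chains of the laminin that anchors epithelial cells, were higher on both co-culture arrays. Lama3 was at 5.86 and 5.38 alone, 7.24 and 7.21 in co-culture and 4.6 in MBA-15. Lamb3 was at 7.61 and 7.18 alone, 9.24 and 8.6 in co-culture and 4.79 in MBA-15. Neither passed, with a limma adjusted p of 0.0906 for Lama3 and 0.134 for Lamb3. Col7a1, the anchoring fibril collagen, was at 5.61 and 5.24 alone, 7.72 and 5.78 in co-culture and 4.98 in MBA-15, so the second co-culture array was barely above the alone arrays. Lama5, a chain of other epithelial laminins, was at 10.06 and 10.02 alone, 9.15 and 8.3 in co-culture and 5.56 in MBA-15, and Col4a5, a type IV collagen chain, at 5.9 and 6.67 alone, 4.52 and 4.43 in co-culture and 4.84 in MBA-15. Of 10 expressed members 3 were higher and 6 lower, and the median was -0.8 (-0.53 after quantile normalization). Of 14 expressed integrins and collagen receptors 2 were higher, Itga2 and the hyaluronan receptor Cd44 (8.79 and 8.85 alone, 9.84 and 9.4 in co-culture and 7.93 in MBA-15), and 4 lower. Itgb5, a vitronectin receptor subunit, was at 8.95 and 9.47 alone, 7.5 and 7.44 in co-culture and 8.54 in MBA-15. Itgb2, a beta chain known from leukocytes, was at 6.67 and 6.67 alone, 4.77 and 5.14 in co-culture and 4.19 in MBA-15. The list median was -0.09 as deposited and 0.21 after quantile normalization.

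Matrix proteases and their inhibitors also differed in both directions. Timp3, an inhibitor of metalloproteinases that binds to matrix, read 10.05 and 9.56 on the DA3 alone arrays, 6.83 and 7.59 on the co-culture arrays and 8.86 in MBA-15, lower by more than 1 log2 unit in each pair of arrays. Timp1, another inhibitor, was at 7.19 and 7.01 alone, 8.49 and 9.08 in co-culture and 9.4 in MBA-15, and its difference went from 1.68 to 1.42 with the stromal share added. The sheddases Adam10 (8.62 and 8.34 alone, 7.89 and 7.48 in co-culture and 8.07 in MBA-15) and Adam17 (8.44 and 8.45 alone, 7.88 and 7.77 in co-culture and 8.2 in MBA-15) were lower on both arrays. Of 11 expressed members 2 were higher and 5 lower, and limma over all genes called none.

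Genes of squamous differentiation were mixed as well. S100a7a was at 5.29 and 4.59 alone, 6.37 and 6.45 in co-culture and 4.58 in MBA-15 and the kallikrein Klk10 at 8.6 and 7.94 alone, 9.15 and 9.75 in co-culture and 5.65 in MBA-15, both with lower means in MBA-15 co-culture than in DA3 co-culture. Tgm1, a transglutaminase of the cornified envelope, was at 6.85 and 6.42 alone, 4.68 and 5.11 in co-culture and 4.04 in MBA-15, and Ivl, involucrin, at 6.11 and 6.96 alone, 4.66 and 5.73 in co-culture and 4.17 in MBA-15. Of 16 expressed cornification and S100 genes 5 were higher and 3 lower. Among 33 expressed junction and keratin genes 2 were higher (6.06%) and 15 lower (45.5%), near the 6.23% and 42.3% over all expressed genes. Their median was -0.36 (-0.03 after quantile normalization), and after quantile normalization 6 were higher and 7 lower. The counts are thus no result about this list. The desmosome proteins Ppl (6.64 and 6.41 alone, 5.43 and 4.94 in co-culture and 4.17 in MBA-15), Dsp (7.48 and 7.38 alone, 6.56 and 6.43 in co-culture and 4.1 in MBA-15) and Dsg2 (6.51 and 6.53 alone, 6.0 and 5.64 in co-culture and 4.04 in MBA-15) and the cadherin Cdh3 (7.34 and 7.32 alone, 6.52 and 6.47 in co-culture and 4.07 in MBA-15) were lower on both arrays. Krt8 (10.16 and 9.72 alone, 9.88 and 10.5 in co-culture and 6.03 in MBA-15), Krt18 (10.46 and 10.49 alone, 10.35 and 10.91 in co-culture and 5.85 in MBA-15) and Cdh1 (8.52 and 8.75 alone, 8.66 and 8.3 in co-culture and 4.59 in MBA-15) overlapped between the groups.

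**Figure D4:**
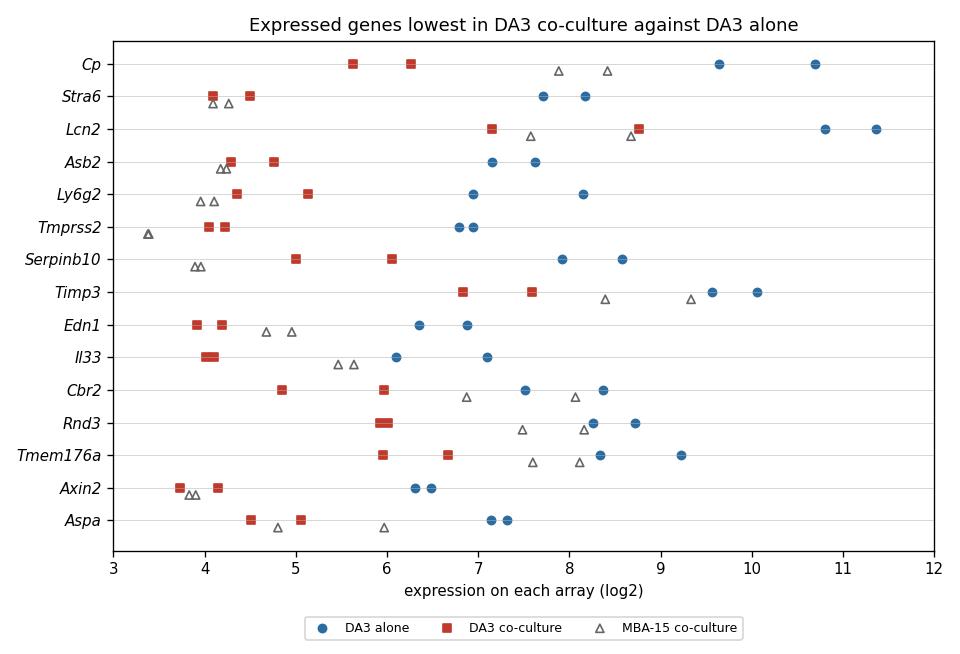
Expression on each array (log2) of the 15 expressed genes with the largest negative differences. Both DA3 co-culture arrays (squares) lie left of both DA3 alone arrays (circles) in each row, and for Cp, Timp3, Rnd3 and Tmem176a, among others, the MBA-15 co-culture arrays (triangles) lie right of the squares.

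The lowest difference was that of Cp, ceruloplasmin, the copper-carrying ferroxidase of the acute phase. It read 9.64 and 10.7 on the DA3 alone arrays, 5.62 and 6.26 on the co-culture arrays and 8.15 in MBA-15, a difference of -4.23 ± 0.52 (SE), and the limma adjusted p was 0.0796. Lcn2, lipocalin 2, which binds the iron carriers of bacteria, was at 10.8 and 11.36 alone, 7.15 and 8.76 in co-culture and 8.13 in MBA-15, with 1 co-culture array much lower than the other. Ltf, lactoferrin, a milk protein that binds iron, was at 6.27 and 7.2 alone, 4.33 and 4.8 in co-culture and 3.56 in MBA-15. All 3 were thus lower on both co-culture arrays, and the metallothioneins Mt1 (7.0 and 6.64 alone, 7.07 and 8.45 in co-culture and 10.17 in MBA-15) and Mt2 (6.75 and 6.85 alone, 7.02 and 8.38 in co-culture and 11.06 in MBA-15) were higher. The difference of Mt2 went from 0.9 to -0.03 with the stromal share added. Over 8 expressed complement and acute-phase genes 2 were higher and 4 lower, and over 8 mammary luminal and milk genes 0 and 5. Muc1, an apical mucin of luminal cells, differed little, at 8.41 and 8.16 alone, 7.99 and 7.89 in co-culture and 4.74 in MBA-15.

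The retinoid list had the lowest median of the lists with 5 or more expressed members, -0.89 (-0.67 after quantile normalization), with 6 of 8 members lower and 1 higher. On the arrays of assay 3 alone it was -0.68, and there complement and acute-phase genes (-0.75) and MHC class I genes (-0.69) were lower. Limma called 2, Stra6 and Asb2. The list was chosen with earlier results known and holds these 2 genes, so its median and calls are no separate result. Rdh11 was the higher member (0.28) and Fabp5 overlapped (0.18). Dhrs9, which was not expressed, was higher on both co-culture arrays (1.64). Rdh10, which makes retinal from retinol, was at 10.34 and 10.85 alone, 9.59 and 9.49 in co-culture and 7.75 in MBA-15, and Rxra, the shared receptor partner, at 6.42 and 6.12 alone, 5.8 and 5.27 in co-culture and 5.65 in MBA-15. The receptor gene Rarg was at 7.28 and 7.04 alone, 6.88 and 6.56 in co-culture and 7.28 in MBA-15. Tgm2, tissue transglutaminase, a known retinoid-responsive gene, was at 8.82 and 8.86 alone, 7.81 and 7.0 in co-culture and 7.15 in MBA-15.

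Wnt pathway genes had a median of -0.65 (-0.35 after quantile normalization), 1 of 14 higher and 8 lower, and none called by limma over all genes. Axin2, a feedback inhibitor and widely used readout of beta-catenin signalling, read 6.31 and 6.48 on the DA3 alone arrays, 4.15 and 3.73 on the co-culture arrays and 3.87 in MBA-15, near the floor in co-culture. Notum, an enzyme that inactivates Wnt proteins, read 6.78 and 7.01 on the DA3 alone arrays, 4.66 and 5.3 on the co-culture arrays and 4.29 in MBA-15. Lgr4 and Ccn4 are outside the list and its counts and were chosen after their values were seen. Lgr4, an R-spondin receptor, read 7.64 and 7.5 on the DA3 alone arrays, 5.71 and 5.33 on the co-culture arrays and 5.88 in MBA-15. Ccn4, also known as Wisp1, read 6.41 and 6.33 on the DA3 alone arrays, 4.89 and 4.26 on the co-culture arrays and 6.78 in MBA-15. In these 4 genes the co-culture arrays were lower by more than 1 log2 unit. The receptor Fzd7 was at 7.02 and 7.15 alone, 6.45 and 5.75 in co-culture and 7.42 in MBA-15 and the co-receptor Lrp6 at 7.96 and 8.0 alone, 7.74 and 6.48 in co-culture and 7.1 in MBA-15, where the second co-culture array was much the lower. The ligand Wnt7a was higher, at 6.44 and 5.67 alone, 7.07 and 7.08 in co-culture and 3.96 in MBA-15. The expressed members Ccnd1 (-0.32), Tcf7l2 (-0.57), Znrf3 (-0.87), Lrp5 (-0.14) and Wnt7b (-0.19) overlapped between the groups.

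Of 18 expressed genes of the TGF-beta family and its feedback, 1 was higher (5.56%) and 9 lower (50%), with a median of -0.4 (-0.11 after quantile normalization). After quantile normalization 3 were higher and 4 lower. Id2, a target of BMP signalling, was at 7.94 and 7.73 alone, 5.38 and 6.28 in co-culture and 6.88 in MBA-15. Of its relatives on the list, Id1 overlapped (-0.4), and Id3, which was not expressed, was higher on both co-culture arrays (1.11). Tgfb3, a ligand, was at 6.8 and 7.65 alone, 5.59 and 5.1 in co-culture and 5.9 in MBA-15. Smad3 (8.23 and 8.51 alone, 8.2 and 6.76 in co-culture and 7.04 in MBA-15) and Bmpr2 (8.46 and 8.53 alone, 8.32 and 6.81 in co-culture and 8.6 in MBA-15) were lower mainly on the second co-culture array. The higher gene was the BMP antagonist Grem1, at 5.38 and 5.13 alone, 6.39 and 6.25 in co-culture and 8.56 in MBA-15. Outside the lists, Jak2, a kinase of cytokine receptors, was at 8.65 and 9.22 alone, 6.95 and 6.06 in co-culture and 7.8 in MBA-15, and Ahr, the aryl hydrocarbon receptor, at 8.01 and 8.81 alone, 6.53 and 5.92 in co-culture and 8.24 in MBA-15, both chosen after their values were seen. Tmprss2, a membrane serine protease, was at 6.79 and 6.94 alone, 4.05 and 4.22 in co-culture and 3.38 in MBA-15. The serpin Serpinb10 was at 7.91 and 8.57 alone, 5.0 and 6.05 in co-culture and 3.93 in MBA-15. Cbr2, a carbonyl reductase, was at 7.52 and 8.37 alone, 4.85 and 5.97 in co-culture and 7.47 in MBA-15. In all of these genes both co-culture arrays were lower. Tmem176a was at 8.33 and 9.23 alone, 5.96 and 6.67 in co-culture and 7.86 in MBA-15 and Aspa, which cleaves N-acetylaspartate, at 7.15 and 7.31 alone, 4.51 and 5.06 in co-culture and 5.39 in MBA-15. Ly6g2 was at 6.94 and 8.15 alone, 4.35 and 5.14 in co-culture and 4.03 in MBA-15. Ly6g2 has close relatives in the Ly6 family, such as Ly6g (6.17 and 7.4 alone, 4.81 and 6.11 in co-culture and 4.07 in MBA-15), and its probes may share their signal.

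Genes as high or higher in MBA-15 co-culture form a set of their own. Prl2c5, of the proliferin family, whose members are near-identical and may share probes, read 6.03 and 5.98 on the DA3 alone arrays, 8.74 and 9.78 on the co-culture arrays and 11.2 in MBA-15. Its difference went from 3.25 to 1.73 with the stromal share added. Ptgs2, cyclooxygenase 2, which starts prostaglandin synthesis, read 9.56 and 8.4 on the DA3 alone arrays, 10.92 and 11 on the co-culture arrays and 11.25 in MBA-15, and went from 1.98 to 1.71. Vim, vimentin, was at 7.68 and 7.57 alone, 9.32 and 9.23 in co-culture and 11.07 in MBA-15 and went from 1.65 to 1.06. Col1a1, a chain of type I collagen, read 6.65 and 6.91 on the DA3 alone arrays, 9.61 and 7.78 on the co-culture arrays and 10.86 in MBA-15, and went from 1.92 to 1.02. These genes kept a difference of more than 1 log2 unit in the mean. For Col1a1 that rests on the first co-culture array (9.61), since the second (7.78) was little above DA3 alone with the share added. By contrast Col1a2, the other chain, went from 1.81 to 0.7, Nqo1, a quinone reductase, from 1.82 to 0.45, and Nrn1 from 1.85 to 0.3. H1f1, a linker histone, went from 1.76 to 0.76 and smooth muscle actin Acta2 from 1.56 to 0.69. Vcan, the proteoglycan versican, read 4.99 and 4.55 alone, 6.5 and 5.95 in co-culture and 10.85 in MBA-15 and went from 1.46 to -0.67. The median of 11 expressed stromal matrix genes went from 0.91 to 0.16, and that of 11 expressed stromal cell markers from 0.76 to 0.18. Genes such as Vcan and Col1a1 helped to set the share, so these drops are partly built in. Col12a1 (7.23 and 7.78 alone, 5.7 and 5.08 in co-culture and 8.86 in MBA-15) and Col8a1 (9.12 and 9.76 alone, 7.71 and 7.38 in co-culture and 8.16 in MBA-15) were lower in co-culture.

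Growth, metabolism and housekeeping groups had medians between -0.41 and 0.01 and lay on both sides of the 42.3% lower over all expressed genes. Of 47 expressed mitosis genes 1 was higher and 30 lower (63.8%), with a median of -0.34 (-0.1 after quantile normalization), and their differences ran from -0.81 to 0.13. Of 43 DNA replication genes 0 were higher and 23 lower (53.5%), with a median of -0.38 (-0.13). Ccnb2, a mitotic cyclin, was at 8.97 and 9.21 alone, 7.9 and 8.66 in co-culture and 8.27 in MBA-15, and Mcm7, a subunit of the replicative helicase, at 9.29 and 9.39 alone, 8.09 and 9.21 in co-culture and 8.98 in MBA-15. Of 28 expressed sterol and fatty acid genes 1 was higher and 16 lower (57.1%), with a median of -0.41 (-0.13). After quantile normalization 12 of the 28 were lower and 1 higher. Of the 47 mitosis genes 13 were then lower and 7 higher, and of the 43 replication genes 11 and 1. Over all expressed genes 21.1% were lower and 16.8% higher. Relative to the median of genes of similar level, the list medians were -0.1, -0.07 and -0.11, in the same order. The largest difference among the sterol and fatty acid genes was that of Scd1, a fatty acid desaturase, at 9.17 and 9.64 alone, 7.8 and 7.59 in co-culture and 8.5 in MBA-15, with its relative Scd2 at 11.32 and 11.5 alone, 10.49 and 9.98 in co-culture and 10.52 in MBA-15 and the cholesterol enzyme Dhcr7 at 6.78 and 6.68 alone, 5.9 and 5.73 in co-culture and 6.03 in MBA-15. Ribosomal proteins (12.5% lower, median 0.01) and mitochondrial respiration genes (11.4% lower, median -0.13) lay on the other side of 42.3%, and whether any group differs from the rest was not tested.

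Stress and inflammatory lists held single genes that stood out. Among 26 expressed hypoxia and glycolysis genes, Ndrg1, a stress-induced gene, read 7.82 and 7.74 on the DA3 alone arrays, 9.74 and 9.49 on the co-culture arrays and 7.21 in MBA-15, and its limma adjusted p was 0.0769. Car12, a carbonic anhydrase, was at 7.88 and 7.87 alone, 6.66 and 6.71 in co-culture and 4.16 in MBA-15, and Hif1a at 8.73 and 8.67 alone, 8.25 and 8.16 in co-culture and 9.11 in MBA-15. The list median was -0.13 (0.07 after quantile normalization). Of 35 genes of the unfolded protein and ATF4 response 5 were higher and 13 lower, and the higher ones included Trib3 (7.25 and 7.06 alone, 7.72 and 7.97 in co-culture and 5.99 in MBA-15), Chac1 (6.07 and 6.37 alone, 7.07 and 6.94 in co-culture and 5.73 in MBA-15) and Ppp1r15a (6.06 and 5.66 alone, 6.64 and 6.62 in co-culture and 5.92 in MBA-15). Slc7a11, the cystine carrier, was at 9.71 and 9.94 alone, 7.6 and 8.74 in co-culture and 8.41 in MBA-15. Among 26 NRF2 genes 7 were higher and 8 lower, with Hmox1, heme oxygenase, at 6.59 and 5.92 alone, 6.93 and 7.18 in co-culture and 8.47 in MBA-15. Of 18 NF-kB subunits and targets 4 were higher and 6 lower, and of 13 p53 targets 2 and 4. The p53 target Trp53inp1 was at 6.3 and 6.9 alone, 4.88 and 4.52 in co-culture and 7.27 in MBA-15. Of 23 SRF and YAP targets 7 were higher and 7 lower, with Ankrd1 at 7.25 and 7.16 alone, 8.66 and 8.14 in co-culture and 9.18 in MBA-15 and Ccn2 at 8.53 and 9.53 alone, 8.15 and 7.83 in co-culture and 6.15 in MBA-15. Only 6 of 35 measured interferon-stimulated genes were expressed, 1 higher and 1 lower.

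**Figure D5:**
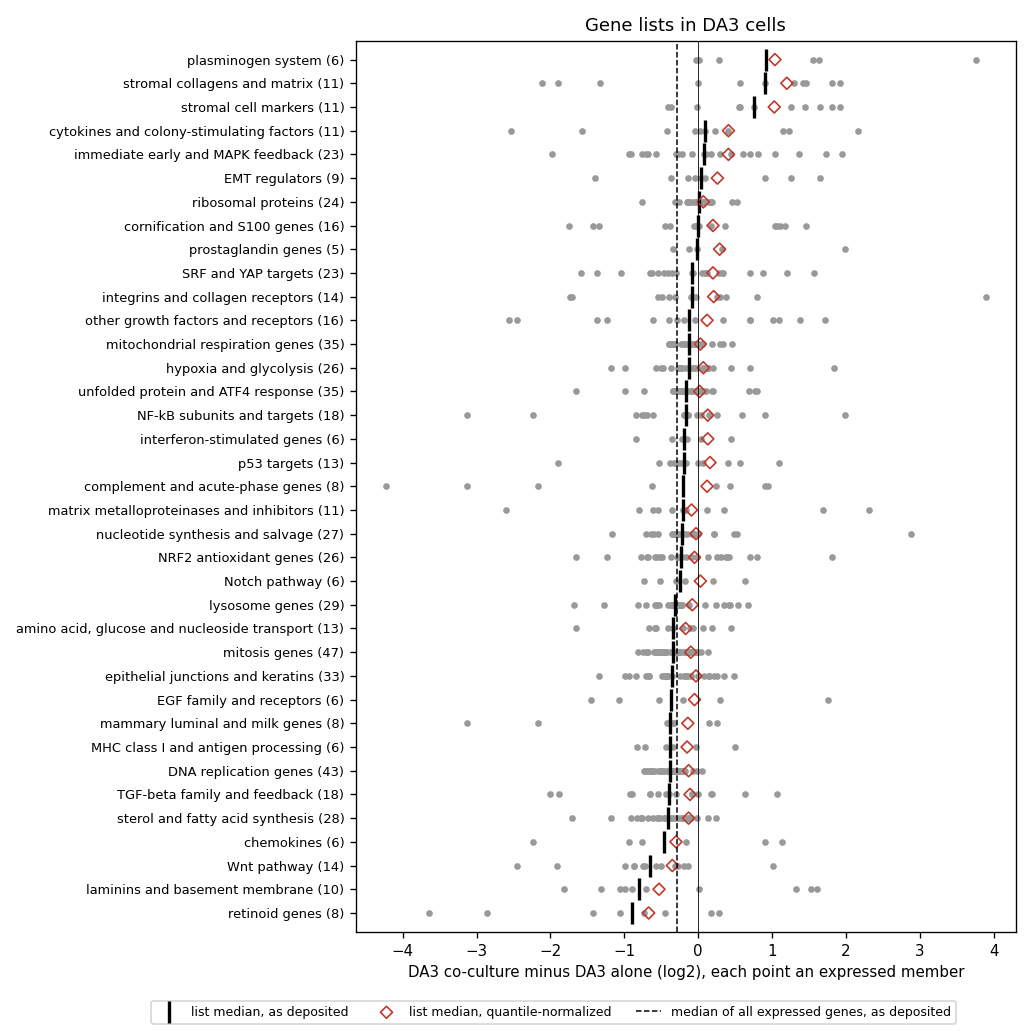
Difference between DA3 co-culture and DA3 alone (log2) for the expressed members of each gene list with 5 or more (points; number in brackets), with the list median as deposited (bar) and after quantile normalization (diamond). The medians of plasminogen genes (0.92), stromal matrix (0.91) and stromal markers (0.76) lie highest and that of retinoid genes (-0.89) lowest, against -0.29 for all expressed genes (dashed). The lists were chosen with earlier results of these data known.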

How the data were processed

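RNA was hybridised to Affymetrix MoGene ST arrays. The authors deposited a log2 value for every probe set, and the submitters' processing notes name RMA and Partek 6.5 without parameters. The log2 scale was read from their range. Normalization between arrays makes each difference relative to the array's other genes. Of 35556 probe sets, 21789 had 1 gene symbol, 1621 several and 12146 are unnamed here. The probe set with the highest mean stood for each of 999 genes with several, which left 19938 genes. Symbols were checked through Entrez identifiers in a RefSeq table of GRCm38.p6.

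Group means of all 8 arrays were fitted by lmFit and eBayes of limma 3.58.1 under R 4.3.3 (4 residual and 2.6 prior degrees of freedom), with the contrast DA3 co-culture minus DA3 alone, two-sided, and Benjamini-Hochberg adjustment. The script was tested on simulated data. Array number limits the precision. The members, the gene lists and the rules were chosen with earlier results of these data known.

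Named genes are those called by limma, the 15 largest negative differences, up to 5 per list with arrays apart, and Epcam, Eif2s3y and Xist. Added to them are the 15 largest positive differences with a lower mean in MBA-15 than in DA3 co-culture, and 8 where it was not lower. Loci with predicted or clone names were left out. Partner genes such as Itgb1, Plau, Jun, Jund, Fos, Krt8, Krt18, Cdh1, Lgr4, Ccn4 and Rarg were chosen after their values were seen. For the stromal share, the mean of MBA-15 co-culture was mixed on the linear scale into each DA3 alone array. Replicate numbers were not used to pair arrays.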

Additional observations from a re-analysis of the deposited data

Results flagged for a closer look

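Cpa4 was flagged by a test of its DA3 difference against that between the groups labelled MBA-15. Its difference in DA3 minus that in MBA-15 was 2.31 ± 0.18 (SE), with an adjusted p of 0.0315 by limma. This test called 12 genes in all. The MBA-15 side of the value uses the arrays labelled MBA-15 alone, whose Epcam goes against that label. A direction drawn from them is thus uncertain, and the test cannot show that the lines differ in their response.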

How the results depend on the processing

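Against 2 genes called higher and 6 lower, limma called 0 and 0 with the 4 DA3 arrays alone (2982 genes at an unadjusted p under 0.05). It called 1 and 4 with the stromal share added, 3 and 11 with arrays centred, and 33 and 81 over expressed genes. With an intensity trend it called 40 and 80, and after quantile normalization 1 and 0. The last setting was chosen after the data were seen. The filter on expressed genes reads the groups compared, so its calls support nothing here. Leaving out 1 array gave 0 to 2 higher and 0 to 1 lower, with 1460 to 3472 genes at an unadjusted p under 0.05. With the replicate number as a block, 1 was higher and 2 lower, and deviations of same-numbered arrays correlated at 0.032 in DA3 and between -0.413 and 0.311 over the 6 pairs of groups. Numbers 1 and 2 coincide with assays 4 and 3 in 3 of the 4 groups, but not in DA3 co-culture, whose arrays are of assays 3 and 5. Assay 5 holds no other array, so the second co-culture array cannot be told apart from its assay.

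The 98 expressed genes at least 1 log2 unit higher and 366 lower became 61 and 230 with a mean above 7, 168 and 163 after quantile normalization, and 181 and 565 on the arrays of assay 3 alone. Leaving out 1 DA3 array gave 90 to 154 and 368 to 908. With the stromal share added the difference reversed for Eif2s3y (-0.16), Mt2 (-0.03), Uty (-0.27) and Vcan (-0.67), and after quantile normalization for Xist (-0.03). These were 5 of 3088 pairs of a named gene and a setting. The causes were not tested.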

Other observations

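Small RNA genes on the arrays were higher more often than lower in DA3 co-culture, as dim genes were in general. Of 51 small nucleolar RNA genes, which guide the modification of ribosomal RNA, 24 had both co-culture arrays higher and 2 both lower, with a median difference of 0.43. Of 291 microRNA genes 152 were higher and 7 lower, with a median of 0.17. Over all genes 31.4% were higher and 22.4% lower, but among genes with a mean up to 4 the shares were 52.8% and 2.6%, with a median of 0.14. The share of microRNA genes is near that of the dim genes, and the share of small nucleolar RNA genes that were higher is not above it. These counts are therefore no result about small RNAs. The arrays target long transcripts, so these probe sets may read precursors or host transcripts, which was not tested.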
